A study of Mus musculus with 24 samples.

Results

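The comparison described here is that of a hairpin against FOXA2 with a control hairpin in mouse hepatocytes treated with glucagon. All arrays whose title names glucagon were taken, which gave 12 of the 24 arrays of the series, 6 with the FOXA2 hairpin and 6 with the control. An array with the FOXA2 hairpin was set against the control array of the same experiment and the same drug, so the 12 arrays form 6 pairs. The rule used the titles of the arrays alone.

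The cells were primary hepatocytes of male C57Bl6J mice, and each of the 3 experiments used cells pooled from 3 mice. They received an adenovirus at a multiplicity of infection of 5 that carried a short hairpin RNA, either shFOXA2.3 (called shFOXA2 below) or shlacZ, which is directed at a bacterial gene that mouse cells do not have. The 4 groups used here were shFOXA2 with GW4064, shFOXA2 with the solvent DMSO, shlacZ with GW4064 and shlacZ with DMSO, with 3 arrays each, 1 from each experiment. All 12 cultures were treated for 4 h with 100 nM glucagon in medium with 100 nM dexamethasone, and GW4064 was given at 2 µM. GW4064 is a compound that activates FXR, the nuclear receptor for bile acids. The other 12 arrays of the series had insulin in place of glucagon. A single hairpin sequence against FOXA2 was used, so effects of the loss of FOXA2 and effects of that hairpin on other transcripts cannot be told apart. Both pairs of an experiment came from the same pool of cells, so the 6 pairs are not 6 independent cultures of different animals.

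FOXA2 is a forkhead transcription factor of the liver that binds DNA in closed chromatin and opens enhancers for other factors. With its close relatives FOXA1 and FOXA3 it occupies many hepatocyte genes, and in the fasted liver it is known for its part in fat oxidation, ketone body formation and glucose output. Glucagon is the hormone of fasting. It acts through cyclic AMP, protein kinase A and the factor CREB to switch on gluconeogenic genes such as Pck1 and G6pc.

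Levels below are the deposited log2 values of Affymetrix MoGene 2.0 ST arrays. The array medians over all probe sets lay between 3.21 and 3.28, so a level near 3 is close to the floor of the arrays. Any 2 glucagon arrays correlated at r = 0.986 to 0.997 over 22180 genes. The 9 hepatocyte markers had a median level of 11.05 in shFOXA2 cells and 11.16 in shlacZ cells, with Alb (albumin) at 13.07 in shFOXA2 cells and 13.10 in shlacZ cells. Of the markers of other cells, 0 of 7 lymphocyte, 1 of 8 stellate cell, 2 of 8 macrophage, 2 of 5 cholangiocyte and 4 of 8 endothelial markers reached a level of 4. Of the 8 macrophage markers, Cd68 and Marco were those that reached that level, while Adgre1, Csf1r, Clec4f and Vsig4 averaged between 2.47 and 3.11 in both hairpin groups. In such bulk samples, fewer cells of a type and less RNA per cell cannot be told apart.

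A pair of arrays stood apart. The shlacZ arrays of experiment 3, with DMSO and with GW4064, had high levels of chemokine and NF-kB target genes, described with those genes below. The DMSO pair of experiment 3 also had the widest spread of differences over genes, with an SD of 0.300 and 143 genes that differed more than 2-fold. The other 5 pairs had SDs of 0.192 to 0.238 and 13 to 59 such genes. For some of the genes and lists below, values are also given without these 2 control arrays, a setting chosen after seeing the data. That setting kept the shFOXA2 arrays of experiment 3, which then had no control array under glucagon.

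In 6 of 6 pairs Foxa2, against which the hairpin is directed, was lower in shFOXA2 cells than in shlacZ cells, but by unequal amounts. With DMSO its level was 7.04, 6.82 and 7.21 in shFOXA2 cells of experiments 1, 2 and 3, against 7.46, 7.72 and 7.24 in shlacZ cells. With GW4064 it was 6.89, 6.79 and 7.03 in shFOXA2 cells, against 7.48, 7.33 and 7.11 in shlacZ cells. The shlacZ arrays of experiment 3 were the lowest of the control arrays, and the shFOXA2 arrays of experiment 3 the highest of their drug group, so that the hairpin groups overlapped. The averaged difference was -0.43 on the log2 scale (SE 0.098, 95% interval -0.63 to -0.22), that is -25.6% (95% interval -35.5% to -14.3%). Experiments 1, 2 and 3 gave -29.6%, -39.1% and -4.01%.

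The Foxa2 difference did not pass the test over all genes (limma with the experiment as a block, adjusted p = 0.379), in which Foxa2 ranked 16 by p-value. Taken by itself, it gave p = 0.0312 in an exact two-sided sign-flip permutation test over the 6 pairs, and p = 0.25 over the 3 experiments. Each is the smallest value that such a test can reach. The test over 6 pairs treats both drugs of an experiment as independent although they share a pool of cells. Only the test over the 3 experiments respects the pools, and it cannot fall below 0.05. Without the 2 shlacZ arrays of experiment 3 the difference was -0.61 and passed (limma, adjusted p = 0.0224). These were the control arrays lowest in Foxa2, left out after seeing the data, so a larger difference was favoured by the choice. That fit also kept the shFOXA2 arrays of experiment 3 unpaired, so its pass is no support for the difference. Without all arrays of experiment 1, 2 or 3 the Foxa2 difference was -0.39, -0.28 and -0.61, with adjusted p of 0.575, 0.711 and 0.0787 in limma. The depth of the reduction in Foxa2 thus differed between experiments by more than between drugs: it was -0.45 with DMSO and -0.40 with GW4064, and the difference between these was 0.05 (SE 0.197, limma adjusted p = 0.979).

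**Figure D1:**
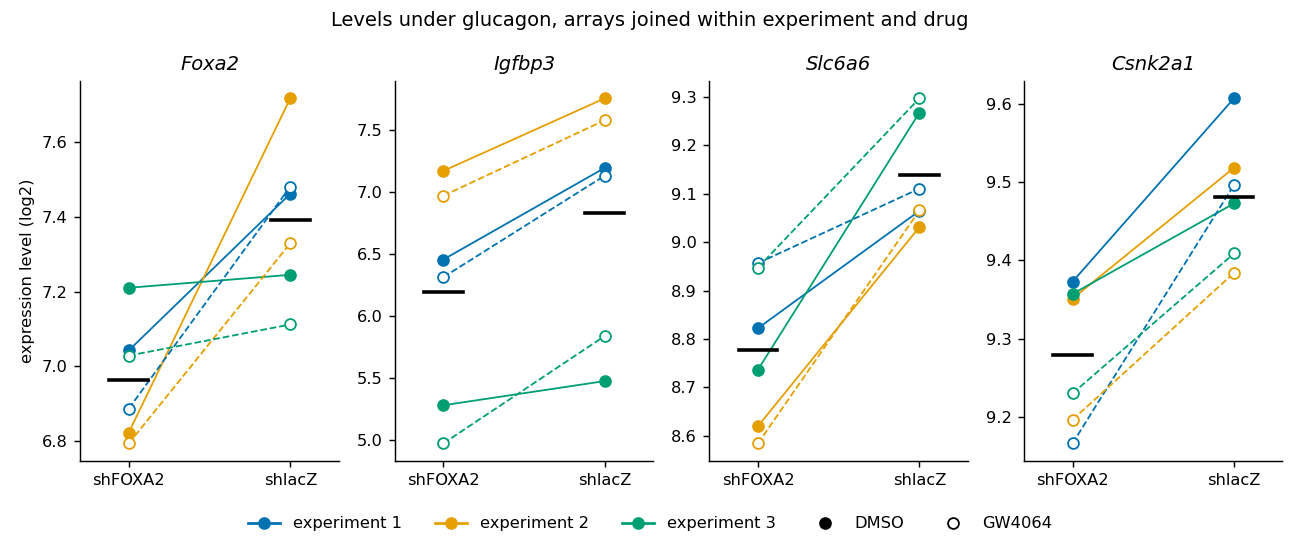
Expression level (log2) of Foxa2, Igfbp3, Slc6a6 and Csnk2a1 on each of the 12 glucagon arrays, with shFOXA2 on the left and shlacZ on the right of each panel. Lines join the arrays of 1 experiment and 1 drug, filled points are DMSO and open points GW4064, and black bars are the means of 6 arrays. The vertical scales differ between panels and do not start at 0. All 24 lines run upwards to shlacZ, and the Foxa2 lines of experiment 3 are nearly flat. The groups do not overlap for Slc6a6 and Csnk2a1, as was so for 0.0766% of all genes in this direction.

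The related FOXA genes did not differ beyond their error. Foxa1 averaged 7.44 ± 0.096 in shFOXA2 cells and 7.34 ± 0.143 in shlacZ cells (SD, n = 6 arrays of 3 experiments each), a difference of 0.09 with a 95% interval of -0.04 to 0.23. Foxa3 averaged 6.64 ± 0.195 in shFOXA2 cells and 6.59 ± 0.198 in shlacZ cells (SD, n = 6 each), a difference of 0.05 with an interval of -0.12 to 0.21. Of all 17 forkhead genes on the list, 0 passed the test over all genes. Their median difference was 0.05, and Foxj2 had the highest, 0.33 (higher in 5 of 6 pairs, limma adjusted p = 0.433).

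Across the transcriptome, 1 gene of 22180 passed an adjusted p of 0.05, which is 0.00451% of the genes tested. This gene was Slc6a6, which encodes the taurine transporter of the plasma membrane. Taurine is the amino acid that mouse liver joins to bile acids. The level of Slc6a6 with DMSO was 8.82, 8.62 and 8.74 in shFOXA2 cells of experiments 1 to 3, against 9.06, 9.03 and 9.27 in shlacZ cells. With GW4064 it was 8.96, 8.58 and 8.95 in shFOXA2 cells, against 9.11, 9.07 and 9.30 in shlacZ cells. All 6 shFOXA2 arrays were below all 6 shlacZ arrays, as was so for 0.0766% of all genes. Slc6a6 fell by 0.36 on the log2 scale (SE 0.054, 95% interval -0.48 to -0.25, limma adjusted p = 0.0427), a change of -22.2%, and was lower in 6 of 6 pairs. The call rested on the fit: with no replicate block the adjusted p in limma was 0.9998. It was 0.265 with a block by pair and 0.479 with the 12 glucagon arrays alone. With the drugs of an experiment averaged first, which leaves 1 pair per pool of cells, it was 0.824. The leave-out settings that kept the call were those without the shFOXA2 DMSO array or the shFOXA2 GW4064 array of experiment 1. Leaving out any of the other 10 glucagon arrays, or any whole experiment, ended the call, with the difference between -0.44 and -0.32 over all 26 alternatives.

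At an unadjusted p under 0.05, 1053 genes (4.75%) were higher and 732 (3.3%) lower in shFOXA2 cells, together 8.05% of the genes. The same sign in all 6 pairs was found for 539 genes (2.43%) that were higher and 392 (1.77%) that were lower. The averaged difference was larger than 1.5-fold for 4 genes (0.018%), named here after their values were seen: Cxcl2 (-1.04), Cxcl1 (-0.64), Igfbp3 (-0.64) and Vmn1r127, a vomeronasal receptor gene (0.65). None of these 4 passed the test over all genes. The differences of separate pairs had little in common over the genes. The 15 correlations between 2 of the 6 pairs lay between -0.06 and 0.12 over 22180 genes, with 0.04, 0.04 and 0.12 for the DMSO and GW4064 pairs of experiments 1, 2 and 3, which share their pool of cells.

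Igfbp3, which encodes a carrier protein for insulin-like growth factors in blood, had a larger difference than Foxa2 and Csnk2a1, the other genes picked with earlier results of these data known. With DMSO its level was 6.45, 7.17 and 5.28 in shFOXA2 cells of experiments 1 to 3, against 7.20, 7.76 and 5.47 in shlacZ cells. With GW4064 it was 6.31, 6.97 and 4.97 in shFOXA2 cells, against 7.13, 7.58 and 5.84 in shlacZ cells. The experiments differed more than the hairpins, so the groups overlapped although Igfbp3 was lower in 6 of 6 pairs. The averaged difference was -0.64 (SE 0.130, limma adjusted p = 0.256), or -35.7%. Experiments 1, 2 and 3 gave differences of -0.78, -0.60 and -0.53, so unlike that of Foxa2 it was about as large in experiment 3. The other carriers were nearer to 0: Igfbp1 differed by -0.24, Igfbp2 by -0.10 and Igfbp4 by 0.05. Of the 16 genes of the IGF list, 0 passed, and their median was 0.00. Irs1 had the highest difference of that list, 0.36, which was 0.10 without the 2 shlacZ arrays of experiment 3.

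Csnk2a1 encodes a catalytic subunit of casein kinase 2, a kinase that is active in most cells. With DMSO its level was 9.37, 9.35 and 9.36 in shFOXA2 cells of experiments 1 to 3, against 9.61, 9.52 and 9.47 in shlacZ cells. With GW4064 it was 9.17, 9.20 and 9.23 in shFOXA2 cells, against 9.50, 9.38 and 9.41 in shlacZ cells. The difference was small, and Csnk2a1 was lower in 6 of 6 pairs. All shFOXA2 arrays lay below all shlacZ arrays, as was so for 0.0766% of all genes, but narrowly, with 9.37 against 9.38 at the nearest. Csnk2a1 was also picked with earlier results of these data known. The averaged difference of -0.20 (SE 0.051) amounted to -13.1%. This difference did not pass the test over all genes (limma adjusted p = 0.384). Csnk2a2, the other catalytic subunit, differed by 0.01 with a 95% interval of -0.11 to 0.13. Among the 7 genes tested of casein kinases 1 and 2, Csnk1g1 was higher in 6 of 6 pairs by 0.32, without passing.

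Promoters of the named genes were set beside the values, since FOXA proteins bind the forkhead core TGTTTAC and its variant TGTTTGC. Both strands were searched, and the motifs do not overlap, in windows of 250 bases before to 50 bases after a start site (RefSeq, GRCm38.p6). Of 23 genes looked up, 19 had a window, with 21 windows in all, and Slc6a6, Snord118, Cdk19 and Zfhx4 were not searched. TGTTTAC was in the windows of Foxa1, Ccdc28a and Cnnm3, and TGTTTGC in that of G6pc. Of all 32851 windows, 8.48% held one or the other. The windows of Foxa2, Igfbp3 and Csnk2a1 held no match. The windows of G6pc, the gluconeogenic gene with a match, of Ccdc28a, the gene with a match and the largest positive difference of those below, and of Igfbp3, with a large difference and no match, are printed in the direction of transcription, with the match in capitals. They lie at chr11:101367466-101367765 (plus strand), chr10:18234932-18235231 (minus strand) and chr11:7213874-7214173 (minus strand). In Ccdc28a the motif is on the strand opposite to the gene, so its reverse complement is read. The match begins 141 bases before the start site in G6pc and 6 bases before it in Ccdc28a.
G6pc: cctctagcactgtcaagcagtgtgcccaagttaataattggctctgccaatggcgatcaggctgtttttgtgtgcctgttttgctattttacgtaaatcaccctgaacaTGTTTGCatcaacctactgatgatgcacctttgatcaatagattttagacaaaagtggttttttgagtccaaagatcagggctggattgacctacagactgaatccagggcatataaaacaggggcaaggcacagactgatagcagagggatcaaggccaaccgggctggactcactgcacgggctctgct
Ccdc28a: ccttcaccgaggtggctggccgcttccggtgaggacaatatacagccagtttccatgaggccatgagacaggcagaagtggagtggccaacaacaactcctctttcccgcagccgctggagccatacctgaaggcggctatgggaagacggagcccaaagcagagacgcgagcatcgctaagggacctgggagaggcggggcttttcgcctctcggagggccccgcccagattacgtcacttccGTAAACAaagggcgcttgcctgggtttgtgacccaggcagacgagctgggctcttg
Igfbp3: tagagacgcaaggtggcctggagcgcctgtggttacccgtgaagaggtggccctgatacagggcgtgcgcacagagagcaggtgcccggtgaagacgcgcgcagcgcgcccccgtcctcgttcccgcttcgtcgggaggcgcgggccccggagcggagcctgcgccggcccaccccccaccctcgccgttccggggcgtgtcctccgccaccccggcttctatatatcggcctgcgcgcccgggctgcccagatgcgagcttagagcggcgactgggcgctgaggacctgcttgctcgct

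Ranked by p-value beside Slc6a6, Igfbp3, Foxa2 and Csnk2a1, 8 genes that were higher and 4 that were lower are given as values, since none passed the test. The rule that chose them asked for the same sign in all 6 pairs and a mean level of at least 4 in the higher hairpin group. Snord118, the small nucleolar RNA U8 that takes part in ribosomal RNA processing, differed by -0.40 (SE 0.068, limma adjusted p = 0.101). Ankrd52, a regulatory subunit of protein phosphatase 6, also differed by -0.40 (SE 0.076). Mcoln1, a cation channel of lysosomes, differed by -0.32, and so did Cdk2, a kinase of the cell cycle. These 4 genes differed by amounts near that of Slc6a6, between -20.0% and -24.5%.

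On the higher side, Ccdc28a and Cdk19 had the lowest adjusted p-value. Ccdc28a was at 5.56, 5.37 and 5.16 with DMSO in shFOXA2 cells of experiments 1 to 3, against 4.90, 5.20 and 4.44 in shlacZ cells, and differed by 0.47 on average (SE 0.085, limma adjusted p = 0.106). Cdk19, a kinase of the Mediator complex, differed by 0.40 (SE 0.072). Zfhx4, a zinc finger homeobox gene, differed by 0.46. Bmyc, a gene related to Myc in rodents, Cnnm3, of a family linked to magnesium transport, Kmt2c, a histone H3 methyltransferase, Pgap6, which acts on lipid-anchored proteins, and Isca2, which helps to build iron-sulfur clusters, differed by 0.31 to 0.37. The difference of Bmyc was 0.18 with the mean of all its probe sets, and that of Isca2 was 0.19 without experiment 3. Of the 8 genes, Isca2 had shFOXA2 arrays that were all above the shlacZ arrays, as did 0.0631% of all genes.

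**Figure D2:**
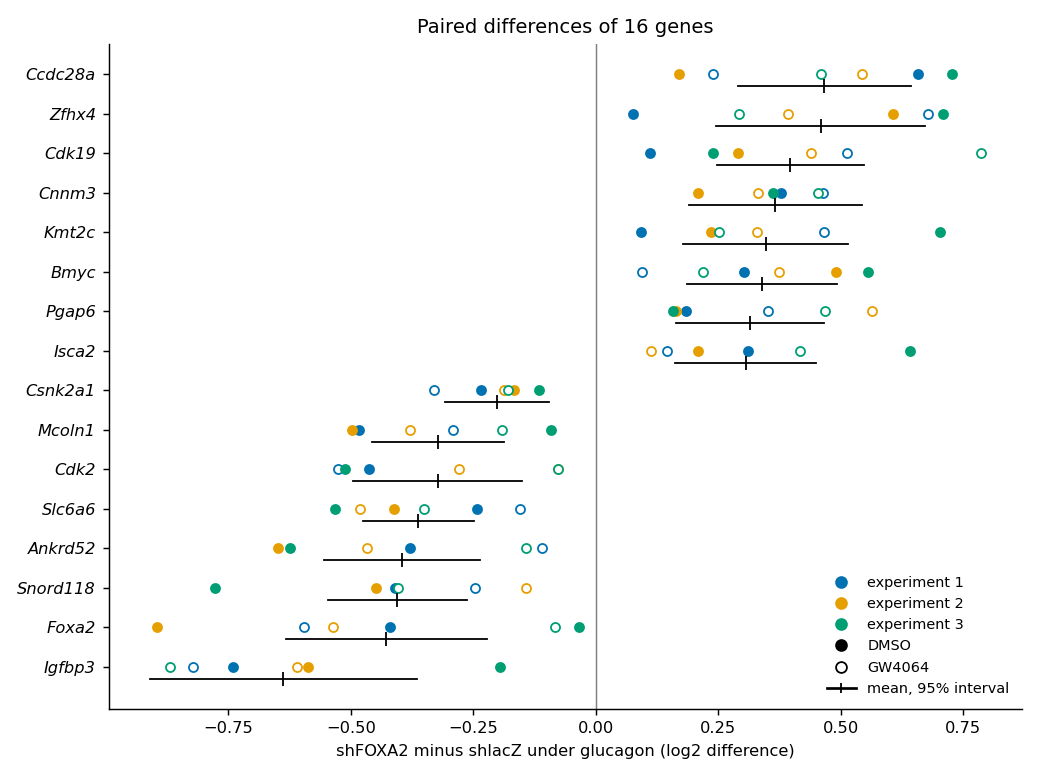
Differences in log2 level, shFOXA2 minus shlacZ under glucagon, for 16 genes, with 1 point for each of the 6 pairs (colour for experiment, filled for DMSO, open for GW4064) and the averaged difference with its 95% interval below. The genes other than Foxa2, Csnk2a1 and Igfbp3 were chosen from these differences for the same sign in all 6 pairs. The Foxa2 points of experiment 3 lie next to 0, while those of Igfbp3 spread from -0.87 to -0.20.

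Gluconeogenic genes, the main targets of glucagon, had differences of both signs. Of 13 genes, 0 passed, 0 had an unadjusted p under 0.05 and the median difference was 0.01. Pck1, the cytosolic enzyme that makes phosphoenolpyruvate, was with DMSO at 10.11, 8.22 and 9.75 in shFOXA2 cells of experiments 1 to 3, against 10.32, 8.99 and 9.68 in shlacZ cells. With GW4064 it was at 10.46, 8.01 and 10.47 in shFOXA2 cells, against 10.67, 8.48 and 9.70 in shlacZ cells. The differences of Pck1 were -0.21 and -0.62 in experiments 1 and 2 and 0.42 in experiment 3, and the average was -0.14 with a 95% interval of -0.71 to 0.43. This interval leaves room for differences of -38.7% to 34.9%.

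G6pc, the enzyme that releases glucose from its phosphate, had the same order over the experiments, with -0.08, -0.24 and 0.70 in experiments 1, 2 and 3 and an average of 0.13 (95% interval -0.42 to 0.67). Its levels with DMSO were 8.69, 8.21 and 8.44 in shFOXA2 cells, against 8.80, 8.59 and 8.05 in shlacZ cells. Ppargc1a, a coactivator that glucagon induces, differed by 0.27 and was higher in 5 of 6 pairs, with 0.05, 0.07 and 0.70 in experiments 1, 2 and 3. For Pck1, G6pc and Ppargc1a the differences of experiment 3, whose shlacZ arrays stood apart, were the highest. Without those 2 arrays the averaged difference was -0.24 for Pck1 (SE 0.326), -0.18 for G6pc (SE 0.278) and 0.26 for Ppargc1a (SE 0.172), so that the G6pc difference had the opposite sign. The remaining genes were closer together: Pcx, pyruvate carboxylase, differed by -0.16 and Fbp1, the enzyme of the fructose bisphosphate step, by 0.13.

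Of early cyclic AMP and CREB targets, 0 of 16 passed the test, 1 had an unadjusted p under 0.05 and the median was 0.03. Nr4a1 and Nr4a3, nuclear receptors induced by cyclic AMP, pointed in opposite directions. Nr4a1 was lower in 6 of 6 pairs, with an averaged difference of -0.30 (SE 0.167). Nr4a3 was higher in 6 of 6 pairs, with 0.27 (SE 0.106). Neither passed the test over all genes. Dusp1, Sik1 and Per1, other genes that cyclic AMP induces, differed by -0.03, 0.05 and 0.06.

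Of 24 genes described as FOXA2 or FOXA targets in liver, 21 were tested, 0 passed, 0 had an unadjusted p under 0.05 and the median was -0.05. Without the 2 shlacZ arrays of experiment 3 the median was -0.11, again with 0 past the test. Dgat2, which makes triglyceride, differed by -0.27 and was lower in 4 of 6 pairs, but differed by -0.04 without those 2 arrays. Onecut1, a liver transcription factor, differed by 0.27 and was higher in 4 of 6 pairs, but differed by -0.07 without those 2 arrays. Pdk4, a kinase that blocks pyruvate oxidation, was higher in 6 of 6 pairs by 0.17 (SE 0.183). The plasma protein genes Ttr and Apoa1 differed by -0.11 and -0.09, and the ketogenic and fat oxidation gene Cpt1a by 0.01 (SE 0.0759).

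Hepatocyte transcription factors likewise had 0 of 16 past the test and a median of 0.00. Hnf4a, a central regulator of hepatocyte identity, differed by -0.03, and Cebpa by -0.16. Nr1i2 had the largest difference of this list, 0.41, which was -0.03 without the 2 shlacZ arrays of experiment 3. Nr1h4, the gene of FXR, differed by 0.33 (SE 0.165, limma adjusted p = 0.643) and was higher in 5 of 6 pairs. Its level with GW4064 was 5.53, 5.55 and 5.06 in shFOXA2 cells of experiments 1 to 3, against 5.39, 5.04 and 4.22 in shlacZ cells. With DMSO it was 5.44, 5.62 and 5.50 in shFOXA2 cells, against 5.54, 5.59 and 4.92 in shlacZ cells. The 2 lowest Nr1h4 values were those of the shlacZ arrays of experiment 3, and by experiment the difference was 0.02, 0.27 and 0.71. Without those 2 arrays the averaged Nr1h4 difference was 0.06 (limma adjusted p = 0.974).

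Of the 13 FXR targets tested, Nr1h4 itself left out, 0 passed, with a median of 0.05. Abcb4, the phospholipid exporter of the bile canaliculus, differed by 0.23 and Osgin1 by 0.13. Without the 2 shlacZ arrays of experiment 3 these differences were 0.08 and 0.16. Nr0b2, the repressor SHP that FXR induces in liver, was near the floor at 3.18 in shFOXA2 cells and 3.19 in shlacZ cells on average. Bile acid genes had 0 of 17 past the test, and Cyp7a1, the rate-limiting enzyme of bile acid synthesis, was at the floor with 2.65 in shFOXA2 cells and 2.69 in shlacZ cells. Slco1a4, an organic anion uptake carrier, had the largest difference of that list with 0.47 (SE 0.265) and was higher in 4 of 6 pairs. It differed by 0.14 without the 2 shlacZ arrays of experiment 3. Hsd3b7, an enzyme of bile acid synthesis, differed by -0.24 and was lower in 4 of 6 pairs.

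Fat and sterol metabolism gave small differences of both signs. Fatty acid oxidation and ketogenesis had 0 of 14 genes past the test and a median of 0.06. Cpt2, which hands fatty acids to the mitochondrial matrix, was higher in 6 of 6 pairs by 0.12 (SE 0.0567). Lipogenesis had 0 of 14 past the test and a median of 0.05, with Elovl6, a fatty acid elongase, at 0.22. Cholesterol synthesis and uptake had 0 of 12 past the test, and its differences ran from -0.11 for Fdps to 0.17 for Cyp51.

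Genes of amino acid and sugar handling also had differences of both signs. Among amino acid breakdown and urea cycle genes, 0 of 17 passed and the median was -0.01. Slc7a2, a carrier of cationic amino acids, was lower in 6 of 6 pairs (-0.23, SE 0.135), and Otc, an enzyme of the urea cycle, was higher in 5 of 6 pairs (0.26). Among genes of glucose uptake, glycolysis and glycogen, 0 of 13 passed, and Gys2, the glycogen synthase of liver, differed by 0.37 (SE 0.137, higher in 4 of 6 pairs). Plasma protein genes had 0 of 16 past the test and differences between -0.18 and 0.05, the narrowest range of the 21 pathway lists.

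The remaining lists had no gene past the test either. ER stress and amino acid response genes had a median of -0.01, and Atf3, a factor of stressed cells, was lower in 6 of 6 pairs (-0.26, SE 0.146). Xenobiotic genes had a median of 0.04, with Cyp2c37 at 0.39 and Cyp1a1 at -0.23. Small RNA genes, listed because a hairpin is processed by the same proteins, had 0 of 11 past the test and a median of 0.09, with Drosha at 0.18 and Ago2, the slicing enzyme, at -0.01. Cell cycle genes had 0 of 11 past the test and a median of 0.08, with 0.02, 0.24 and 0.04 in experiments 1, 2 and 3. Their median was -0.0065 without experiment 2, 0.14 without experiment 1 and 0.18 without the 2 shlacZ arrays of experiment 3. Of these, Ccne1, the cyclin that partners Cdk2, was higher in 6 of 6 pairs by 0.33 (SE 0.095, limma adjusted p = 0.528).

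Over all 21 pathway lists, 304 genes were listed, 274 were tested and 0 passed limma's test. At an unadjusted p under 0.05 there were 22, or 8.03%, beside 8.05% of all genes tested. The share in the lists was therefore that of the background. The same sign in all 6 pairs was seen for 8 of the 274 that were higher and 9 that were lower. Over all 22180 genes it was seen for 539 (2.43%) that were higher and 392 (1.77%) that were lower. Foxa2, Csnk2a1 and Igfbp3, members chosen with earlier results known, are among the 9, so that count is not one of unselected genes. Of 27 list medians, marker lists included, 26 lay within 0.1 of 0, and the median over all genes was 0.00.

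**Figure D3:**
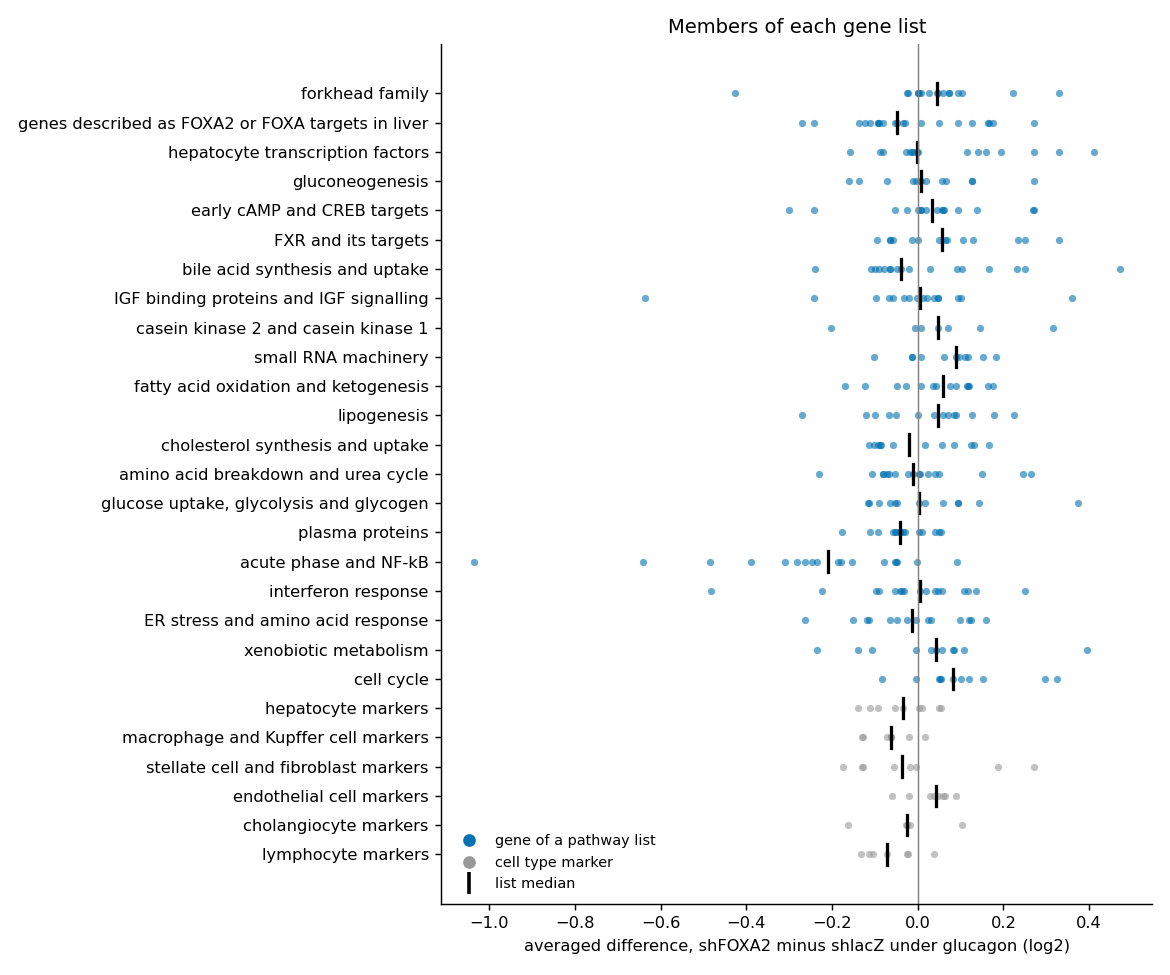
Averaged difference in log2 level, shFOXA2 minus shlacZ under glucagon, for the tested members of 21 pathway lists (blue) and 6 cell type marker lists (grey), with each list's median as a black bar. Medians lie within 0.1 of 0 except that of the acute phase and NF-kB list at -0.21, which holds the most negative gene, Cxcl2.

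The exception was the list of acute phase and NF-kB genes, with a median of -0.21, and it rested on the 2 shlacZ arrays of experiment 3. Of its 18 tested genes 0 passed, and 2 had an unadjusted p under 0.05. By experiment the list's median was 0.03, -0.02 and -0.57. Without those 2 arrays the list's median was 0.07, and without all arrays of experiment 3 it was -0.02. In the pairs of experiment 3, 17 of 18 genes were lower with DMSO and 16 of 18 with GW4064 in shFOXA2 cells. The 8 macrophage markers had array medians of 2.64 to 2.92 in shFOXA2 cells and 2.75 to 3.04 in shlacZ cells, and 2.82 and 2.92 on the 2 shlacZ arrays of experiment 3. In the pairs of experiment 3, 8 of 8 of these markers were lower with DMSO and 7 of 8 with GW4064 in shFOXA2 cells, by medians of -0.11 and -0.17, all but Cd68 and Marco near the floor. Lymphocyte markers, all near the floor, were lower in the same pairs for 7 of 7 and 6 of 7 genes (medians -0.09 and -0.25). Cholangiocyte markers, of which 3 of 5 were under a level of 4, were lower for 4 of 5 in each (-0.21 and -0.16). Stellate cell markers were lower for 5 of 8 and 6 of 8 (-0.03 and -0.07). Endothelial markers were lower for 2 of 8 with DMSO and 5 of 8 with GW4064 (0.11 and -0.07). The share of all genes that were lower in these pairs was not counted. The part of these markers in the result was not tested.

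Cxcl2, a chemokine that attracts neutrophils, was in experiment 3 at 3.60 with DMSO and 4.38 with GW4064 in shFOXA2 cells, against 6.03 and 7.11 in shlacZ cells. In experiments 1 and 2 it was between 3.13 and 3.56 in shFOXA2 cells, against 3.06 to 4.43 in shlacZ cells. Only the 2 shlacZ arrays of experiment 3 were well above the floor. The averaged difference of -1.04 (SE 0.410, limma adjusted p = 0.591) was -0.28 and -0.25 in experiments 1 and 2 and -2.58 in experiment 3.

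Cxcl1, a related chemokine, differed by -0.24 and 0.20 in experiments 1 and 2 and by -1.88 in experiment 3. Nfkbia, the inhibitor that NF-kB itself induces, was in experiment 3 at 7.71 with DMSO and 8.43 with GW4064 in shFOXA2 cells, against 9.18 and 9.26 in shlacZ cells, and differed by -0.26 and -0.04 in the other experiments. Icam1, an adhesion molecule, differed by -1.21 in experiment 3 and by -0.05 and 0.09 in experiments 1 and 2. Csf1, a growth factor of macrophages, differed by -1.03 in experiment 3 and by 0.07 and 0.03 in the others. In these 5 genes the difference of experiment 3 was the farthest from 0. Without its 2 shlacZ arrays the averaged differences were -0.24 for Cxcl2, 0.38 for Cxcl1, -0.0077 for Nfkbia, 0.24 for Icam1 and 0.20 for Csf1, so that the sign of 3 of them was the opposite. That fit kept the shFOXA2 arrays of experiment 3 unpaired, and the insulin arrays of experiment 3 helped to set its block. The opposite signs are therefore not those of paired arrays.

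Cxcl10, a chemokine induced by interferon, was spread more evenly. It was lower in 6 of 6 pairs, at 4.00, 3.90 and 3.82 with DMSO in shFOXA2 cells of experiments 1 to 3, against 4.18, 4.26 and 4.69 in shlacZ cells. With GW4064 it was 4.04, 4.28 and 4.35 in shFOXA2 cells, against 4.33, 5.01 and 4.81 in shlacZ cells. All of these levels are low on these arrays. The averaged difference was -0.48 (SE 0.143, limma adjusted p = 0.528), and -0.35 without the 2 shlacZ arrays of experiment 3. The interferon list as a whole had 0 of 17 past the test and a median of 0.00, with Ifit2 at 0.25 and Isg15 at -0.04.

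**Figure D4:**
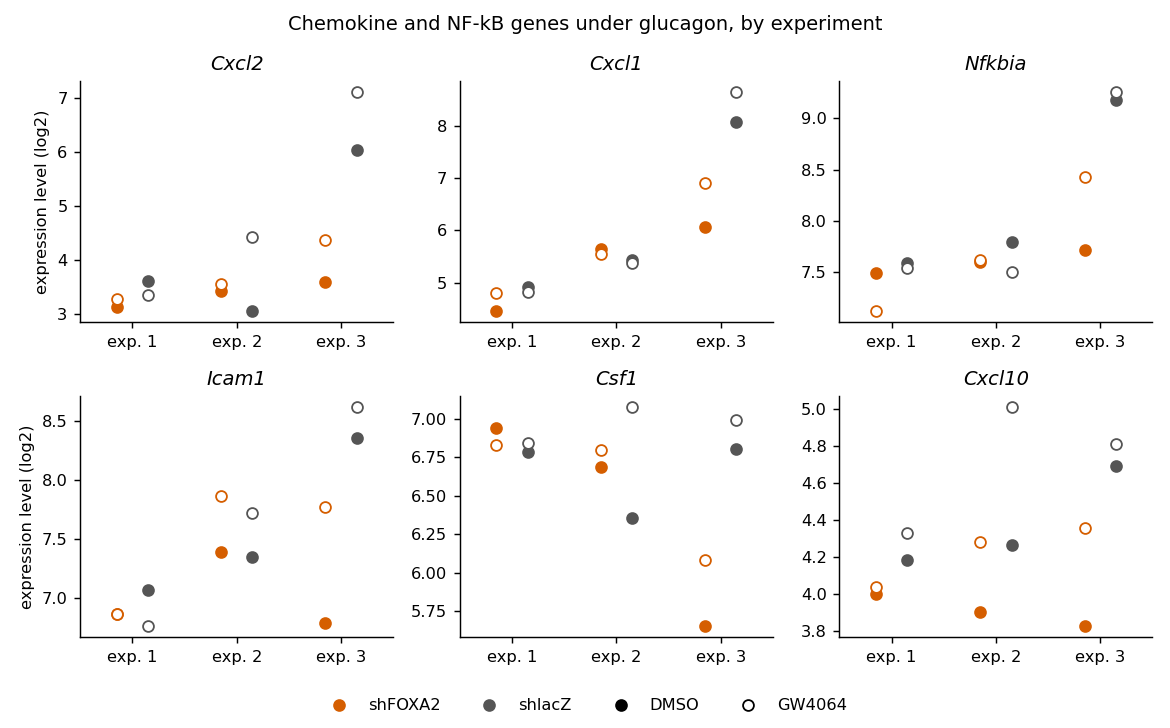
Expression level (log2) of 6 chemokine and NF-kB genes on the 12 glucagon arrays, by experiment, with shFOXA2 (orange) left of shlacZ (grey), filled points for DMSO and open points for GW4064. The vertical scales differ and do not start at 0. For Cxcl2, Cxcl1, Nfkbia and Icam1 the shlacZ arrays of experiment 3 are the highest of all 12, whereas Cxcl10 is lower with shFOXA2 in every pair.

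The drug did not change the hairpin difference of any gene beyond the threshold. With DMSO, 0 genes passed an adjusted p of 0.05 in limma (0%) and 8.25% had an unadjusted p under 0.05. With GW4064, 0 passed (0%) and the unadjusted share was 6.74%. An interaction test of the drugs gave 0 genes (0%), with 1494 genes or 6.74% at an unadjusted p under 0.05. For Slc6a6 the hairpin difference was -0.33 with GW4064 and -0.40 with DMSO, and the difference between them was 0.07 (SE 0.109). For Igfbp3 it was -0.77 with GW4064 and -0.51 with DMSO, a difference of -0.26 (SE 0.260).

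Under insulin, on the other 12 arrays of the series and the same pools of cells, the hairpin gave much the same Foxa2 difference. Foxa2 averaged 5.77 ± 0.219 in shFOXA2 cells and 6.20 ± 0.087 in shlacZ cells with insulin (SD, n = 6 arrays of 3 experiments each), a difference of -0.44 (SE 0.098, limma adjusted p = 0.131). The hairpin difference under glucagon minus that under insulin was 0.01 (SE 0.139). With insulin as with glucagon, experiment 3 had the smallest Foxa2 difference, -0.18, against -0.52 in experiment 1 and -0.61 in experiment 2.

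Under insulin 2 genes passed limma's test (0.00902%), and 10.4% of genes had an unadjusted p under 0.05. Csnk2a1 averaged 9.37 ± 0.065 in shFOXA2 cells and 9.77 ± 0.090 in shlacZ cells with insulin (SD, n = 6 each) and fell by 0.40 (limma adjusted p = 0.0044). Terc, the RNA component of telomerase, differed by 0.64 with an adjusted p of 0.0240 in limma under insulin and by 0.21 under glucagon. For Csnk2a1 the difference under glucagon minus that under insulin was 0.19 (SE 0.072), and for Terc it was -0.43. Neither passed as an interaction (limma adjusted p of 0.643 and 0.589), so the hairpin difference was not shown to depend on the hormone for these genes.

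Slc6a6 was lower in 6 of 6 insulin pairs by a smaller amount (-0.16, SE 0.054, limma adjusted p = 0.302), and the difference between the hormones was -0.20 (SE 0.077, limma adjusted p = 0.654). Igfbp3 was lower in 5 of 6 insulin pairs, with -0.48. Mcoln1 had nearly the same value with both hormones, -0.32 under glucagon and -0.33 under insulin. Cdk19, Zfhx4 and Kmt2c, which were picked for their glucagon values, were near 0 under insulin, with 0.02, -0.0047 and 0.03. The NF-kB genes pointed the other way in experiment 3: under insulin Cxcl1 differed by 0.97 and Icam1 by 1.04 there, and the list's median over all insulin pairs was 0.18.

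Over all genes, 0 passed the test of glucagon against insulin (0%), with 1541 genes or 6.95% at an unadjusted p under 0.05. The averaged differences under the 2 hormones correlated at r = 0.13 over 22180 genes. These genes are not independent replicates, and both sets of arrays used the same 3 pools of cells and the same viruses.

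**Figure D5:**
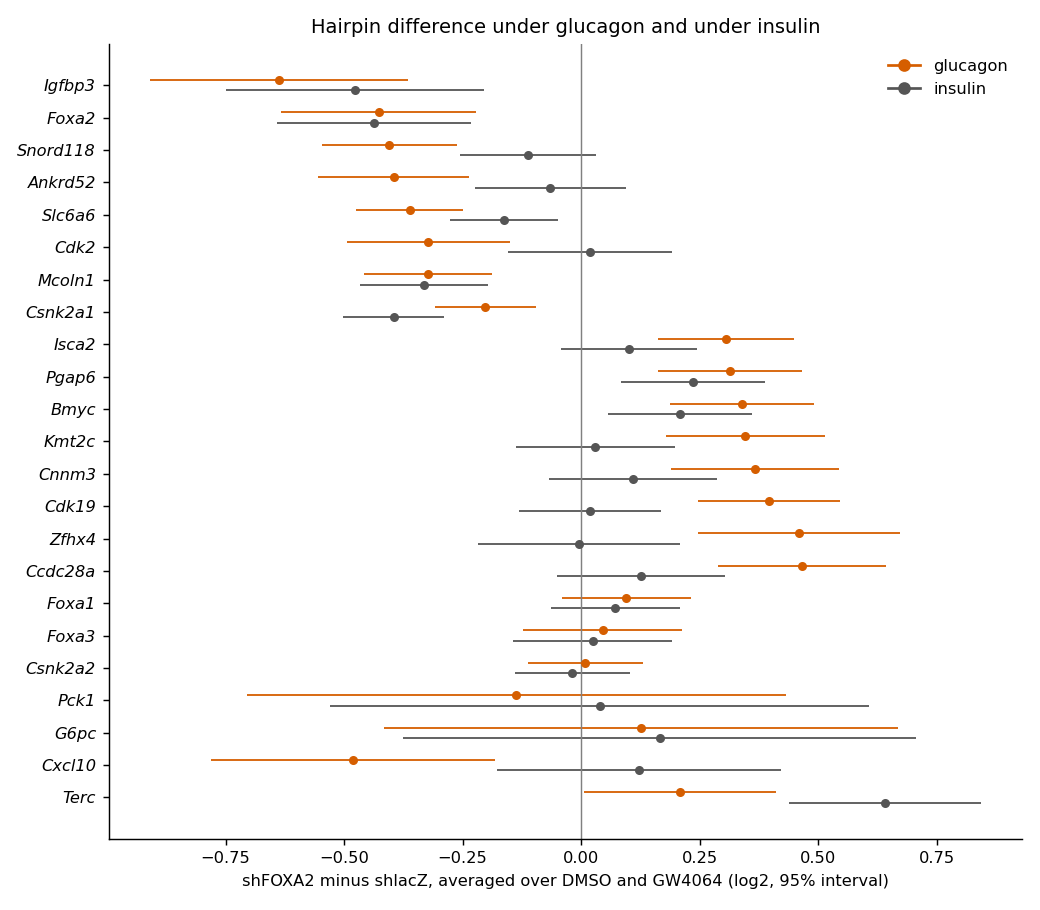
Averaged hairpin difference in log2 level, shFOXA2 minus shlacZ, under glucagon (orange) and under insulin (grey) for 23 genes, each with its 95% interval. Foxa2 and Mcoln1 have nearly equal differences under both hormones, Csnk2a1 and Terc are farther from 0 under insulin, and the intervals of Pck1 and G6pc span 0 under both.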

How the data were processed

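The 24 arrays were deposited by the authors as log2 expression values for 41345 probe sets, with 0 missing values. Nothing states the scale, and log2 was inferred from their range of 1.46 to 13.5. Per the series' design text, which the labels' protocols do not extend, the arrays were processed with GeneSpring and technical replicates were pooled. How the values were normalized and background-corrected is not given in the sources used here.

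The platform annotation gave 1 symbol for 23521 probe sets, several for 1814 and none for 16010. For the 1082 genes with several probe sets of their own, the one with the highest mean was used, which gave 22180 genes. Slc51b and Saa1 share their probe sets with other genes and were not analysed here.

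Differences, shFOXA2 minus shlacZ, came from lmFit and eBayes of limma 3.58.1 (R 4.3.3) on all 24 arrays, with a mean per group and the experiment as a block, which left 14 residual degrees of freedom. P-values were adjusted after Benjamini and Hochberg over all genes, with a threshold of 0.05. Each experiment was a pool of cells from 3 mice, and in all 84 pairs of arrays of the same experiment and different groups the deviations from the group means correlated at over 0.1 (0.418 to 0.607 for the 18 glucagon pairs), so the experiment numbers paired the arrays. Both drugs of an experiment entered the averaged difference as separate pairs. The number of arrays limits the precision, and the median SE of the averaged difference was 0.076. The code was tested on simulated data. Python 3.11.15 with matplotlib 3.10.9 was used for the figures.

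The compared groups, the genes Foxa2, Csnk2a1 and Igfbp3 and the gene lists were chosen with earlier results of these data known. Other genes were named by rule: those past the threshold, otherwise the next by p-value, up to 8 in each direction. Of each list, some of the members with large differences at a mean level of at least 4 were also named. A few others, among them floor-level marker genes and those chosen for their role, were named after their values were seen. Alternatives were the fit without the block, other blocks, normalizations, filters, probe sets and error models, and leaving out arrays or experiments.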

Additional observations from a re-analysis of the deposited data

Results flagged for a closer look

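Among the named genes, Kmt2c had a shFOXA2 array far from the other 5: the DMSO array of experiment 3 was at 6.93, against 5.97 to 6.30 on the others. Such a gap appears by chance in about 1 of 20 groups.

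In 4 of the named genes the hairpin difference had opposite signs with the drugs in every pair. For none of them did the test of the difference between the drugs pass in limma. Gm13034 differed by -0.45 with GW4064 and by 0.51 with DMSO, which is -0.96 for GW4064 minus DMSO (adjusted p = 0.119). Bambi-ps1, at the floor, differed by -0.74 with GW4064 and by 0.31 with DMSO, which is -1.04 (adjusted p = 0.119). Plekhm2 differed by 0.38 with GW4064 and by -0.27 with DMSO, which is 0.66 (adjusted p = 0.186). Pglyrp1, at the floor, differed by -0.39 with GW4064 and by 0.29 with DMSO, which is -0.68 (adjusted p = 0.186).

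In 2 of the named genes the signs were opposite between the hormones in every pair. Fundc2 differed by 0.23 under glucagon and by -0.33 under insulin, which is 0.57 for glucagon minus insulin. Olfr916, at the floor, differed by -0.22 under glucagon and by 0.17 under insulin, which is -0.40. The adjusted p of the difference was 0.397 for both in limma. These 6 genes were named because they had some of the lowest p among 22180 in these tests, so opposite signs were favoured by the choice. Only the named genes were searched for opposite signs, and the share over all genes was not counted.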

How the results depend on the processing

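The count of 1 gene for the averaged glucagon difference was 0 with no replicate block, with the 12 glucagon arrays alone, with a replicate block by pair, with the drugs of an experiment averaged first, with quantile normalization and with array weights. It was 2 (Slc6a6 and Snord118) among genes with a mean of at least 4, and 0 to 1 when an array or experiment was left out. Without the 2 shlacZ arrays of experiment 3 it was 1, and the gene was Foxa2. Those were the control arrays lowest in Foxa2, left out after seeing the data, so that call was favoured by the choice. The count with GW4064 alone was 0 to 1 when an array or experiment was left out, with the 1 gene without the shFOXA2 GW4064 array of experiment 1. The count of 2 under insulin was 1 with no replicate block, 0 with a block by pair, 4 with quantile normalization, 6 with array weights and 0 when any 1 experiment was left out. The cause of these shifts was not tested. Over 26 alternatives, 0 of 416 values of the 16 named genes changed sign. These genes all had the same sign in every pair, and several alternatives leave the value itself unchanged. A change of sign was therefore hardly possible, and its absence is no measure of robustness. Of 701 list medians, 52 moved by more than the spread between experiments. The largest shift, 0.28, was that of the acute phase and NF-kB list without the 2 shlacZ arrays of experiment 3. It is not among the 52, since the spread of that list between experiments was larger still. Most often past their spread were the IGF list (16 of 26 alternatives) and the small RNA list (12 of 26). With 1 hairpin and 3 pools of cells, small differences could not be detected. The intervals are those of single genes, and Foxa2, whose interval left out 0, did not pass the test over all genes.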
